A study of Mus musculus with 191 samples.

Results

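Accessory clock repressors are the 4 genes Bhlhe40, Bhlhe41, Ciart and Cipc, and their transcripts were followed around the day in 5 mouse tissues. They were taken by name from the deposited tables, in which all 4 were found in all 5 tissues, among 21205 genes in any table and over 191 libraries of whole-tissue RNA. Bone marrow, gut, liver and lung came from wild-type C57BL/6 mice given anti-Ly6G (clone 1A8, an antibody against a neutrophil surface protein) or control IgG. Both antibodies were given at 3 µg per g body weight for 2 days, and tissues were taken on the third day. Each arm had 18 libraries, 3 at each Zeitgeber time (ZT, hours after lights on) of 1, 5, 9, 13, 17 and 21. Ear skin came from 3 groups with 1 mouse at each time. The 16 control libraries were labelled wild-type C57BL/6 given diphtheria toxin (DT). The 16 iDTR libraries were labelled Mrp8CRE; iDTR and given DT at 10 µg per kg for 2 days. Their DT receptor is switched on by a Cre under the myeloid Mrp8 promoter. The 15 Bmal1-flox libraries were labelled Mrp8CRE; Bmal1-flox with no treatment, so this group differed from the control in DT as well as in genotype. No strain was labelled for the iDTR and Bmal1-flox mice, and no age was labelled for any group.

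In the mammalian clock, the activators CLOCK and BMAL1 (the product of Arntl) bind E-box sequences as a pair and switch on the Per and Cry genes, whose products then repress that pair. Accessory repressors act on the same step. BHLHE40 and BHLHE41, also called DEC1 and DEC2, bind E-boxes themselves and compete with the activators. CIART, also called CHRONO, binds BMAL1, and CIPC binds CLOCK. Bhlhe40 is also induced by many other stimuli, among them hypoxia and immune signals.

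The E-box is the sequence that CLOCK and BMAL1 bind, so the promoters of these genes that hold one are shown. RefSeq windows on GRCm38.p6, from 250 bases before to 50 bases after a start site, were present for 3 of the 4 genes, with 2 windows for Cipc. Each line runs 5′ to 3′ on the gene's strand with CACGTG in capitals. The Ciart window is chr3:95882179-95882478 on the minus strand, the Bhlhe41 window chr6:145865371-145865670 on the minus strand, and the Cipc window with an E-box chr12:86947093-86947392 on the plus strand.
Ciart: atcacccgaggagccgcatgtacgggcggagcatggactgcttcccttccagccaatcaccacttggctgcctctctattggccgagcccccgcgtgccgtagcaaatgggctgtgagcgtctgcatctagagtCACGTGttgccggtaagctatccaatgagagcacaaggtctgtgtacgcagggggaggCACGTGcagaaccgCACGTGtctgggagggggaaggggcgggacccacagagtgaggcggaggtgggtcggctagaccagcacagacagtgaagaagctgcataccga
Bhlhe41: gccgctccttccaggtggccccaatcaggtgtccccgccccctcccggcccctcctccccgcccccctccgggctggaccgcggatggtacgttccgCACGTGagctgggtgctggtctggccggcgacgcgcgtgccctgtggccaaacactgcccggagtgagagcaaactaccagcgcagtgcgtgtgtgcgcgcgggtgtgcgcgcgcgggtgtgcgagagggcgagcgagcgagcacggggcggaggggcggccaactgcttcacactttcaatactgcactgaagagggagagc
Cipc: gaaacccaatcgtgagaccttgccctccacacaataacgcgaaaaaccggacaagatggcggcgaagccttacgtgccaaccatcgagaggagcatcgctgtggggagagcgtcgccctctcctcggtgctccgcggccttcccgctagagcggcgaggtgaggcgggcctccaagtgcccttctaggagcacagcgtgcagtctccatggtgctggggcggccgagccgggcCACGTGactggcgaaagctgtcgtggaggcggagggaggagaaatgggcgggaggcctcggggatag
Ciart held 3 copies of CACGTG, with first bases at -116, -58 and -44 from the start site. Bhlhe41 held 1 copy at -153 and Cipc 1 copy at -17, while the other Cipc window held none. Of 32851 mouse windows of the same length, 7.15% held at least 1 copy and 0.0883%, or 29 windows, held at least 3. CACGTG reads the same on both strands. The letters AGGTCA (core of the ROR element) and TTATGNAA (D-box), searched on both strands, were in none of the 4 windows and in 16.3% and 3.38% of all windows. Bhlhe40 had no window in the table.

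On GRCm38, Bhlhe40 (ENSMUSG00000030103) lies at chr6:108660629-108666925 on the plus strand and Bhlhe41 (ENSMUSG00000030256) at chr6:145858243-145865558 on the minus strand. Ciart (ENSMUSG00000038550) lies at chr3:95878503-95882251 on the minus strand and Cipc (ENSMUSG00000034157) at chr12:86947043-86965362 on the plus strand. Bhlhe40, Bhlhe41 and Ciart each overlap 1 annotated gene on the opposite strand (0610040F04Rik, Gm43909 and C920021L13Rik). Use of strand in the counting was not stated, so reads of these pairs could not be told apart.

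Values are the deposited normalized signal, scaled by the authors to library size, and library depth was 7683139 to 30885640 recovered read counts. The labels put doubt on some groups. In lung, the labelled ZT matches the title number for 0 of 36 libraries and the labelled treatment for 8 of 36, whereas in bone marrow, gut and liver both match for 36 of 36 each. The lung labels instead follow the order of the table's columns for 36 of 36. Lung is therefore given by label and again by title number, and which order is right was not tested. In skin, Gt(ROSA)26Sor, the locus into which the DT receptor is inserted, had a mean of 0.870 ± 0.401 (SD, n = 16) in control and 0.655 ± 0.319 (n = 16) in iDTR, against 26.2 ± 2.44 (n = 15) in Bmal1-flox, so the label of wild type on the control is in doubt. Arntl, floxed under Mrp8CRE, was 39.6 ± 12.3 in control skin and 40.6 ± 12.5 in Bmal1-flox skin, a whole-tissue value that does not report on neutrophils. Of 12 listed neutrophil markers in bone marrow, 4 were higher and 1 lower after anti-Ly6G, where 17.1% of all genes were called. Their summed signal had a median of 28135 with IgG (23577 to 34565) and 30834 with anti-Ly6G (25669 to 47191). In liver 1 of 3 tested was called, higher, where 1.4% of all genes were called. The called marker was Lcn2 (log2 1.48, SE 0.358; limma, adjusted p = 0.0271). Csf3r (log2 0.30, adjusted p = 0.0878) and Cxcr2 (-0.07, adjusted p = 0.785) were not called, so the markers did not move as a set. The summed signal there had a median of 5.52 with IgG (4.37 to 42.0) and 12.5 with anti-Ly6G (9.98 to 170). In gut 0 of 3 were called, with medians of 180 and 159. Neutrophil number was not measured. In whole tissue, fewer cells of a type and less RNA per cell cannot be told apart. Per the labels some mice were kept under light inverted by 12 h, without saying which. Nothing says how mice were littered or caged, so p-values measure the spread between these libraries.

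The 4 transcripts were distributed differently over the tissues. Levels are given from IgG libraries (n = 18 a tissue) and control skin (n = 16). Each tissue was normalized separately, so levels across tissues are side by side with no test. Bhlhe40 was highest in gut, with a lowest, median and highest signal of 99.5, 178 and 227, followed by liver (33.3, 97.1 and 211), skin (50.7, 64.8 and 101), lung (33.9, 57.2 and 79.8) and bone marrow (15.7, 18.8 and 21.1). Bone marrow alone did not overlap its neighbour in this order. Bhlhe41 had another order, led by skin (25.5, 41.7 and 71.0) and lung (10.2, 17.5 and 36.7). Its medians in bone marrow, gut and liver were 3.15, 2.50 and 1.29, and these 3 ranges overlapped one another. The 2 paralogs thus had their highest medians in different tissues. Ciart was highest in skin (11.7, 23.4 and 48.2) and lung (11.6, 21.0 and 27.4), which overlapped. In gut it ran from 0.398 to 31.8 and in liver from 0.0455 to 21.9, so its level there depended on the hour, and in bone marrow it stayed between 0.658 and 1.804. Cipc was highest in gut (92.4, 159.9 and 253), then skin (74.1, 83.4 and 98.1), lung (40.5, 55.4 and 74.3), liver (24.4, 38.3 and 53.9) and bone marrow (29.2, 31.9 and 36.8). Each neighbouring pair in this order overlapped, skin and lung only just. Per kb of exon, which allows genes to be compared, the mean signal in gut was 37.6 for Bhlhe40, 33.9 for Cipc, 3.96 for Ciart and 0.521 for Bhlhe41. In control skin the same per kb means were 14.5, 17.3, 10.6 and 6.26.

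**Figure D1:**
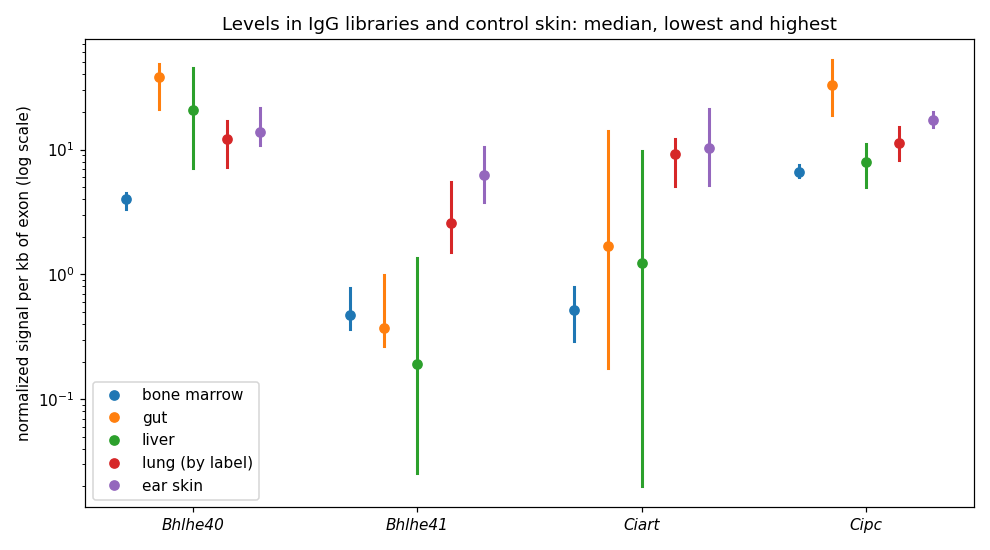
Normalized signal per kb of exon on a log axis for each gene in IgG libraries (n = 18 a tissue, lung by label) and control skin (n = 16). Points are medians and bars run from the lowest to the highest library, so the long Ciart bars in gut and liver show its daily range.

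In gut, all 4 genes had a 24 h rhythm and all peaked near the end of the light phase. A rhythm was called from limma's F test on the cosine and sine terms fitted to log2(signal + 1), at a Benjamini-Hochberg adjusted p under 0.05 over all genes of the tissue. All fitted folds are on this scale, so they understate the swing of genes with signals near or below 1. Of all genes tested in gut, 33.6% were called with IgG and 24.6% with anti-Ly6G. Ciart had the widest swing. With IgG its signals were 0.766, 1.21 and 1.60 at ZT 1 and 17.7, 21.7 and 31.8 at ZT 9, and all libraries at ZT 9 and ZT 13 lay above all those at the other times. The fitted peak was at 10.5 h (SE 0.315) with a peak-to-trough fold of 16.8 on the log2(signal + 1) scale (limma, adjusted p = 2.76e-10). With anti-Ly6G the peak was at 10.2 h (SE 0.359) with a fold of 11.9.

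Cipc, far more abundant, had a smaller but tighter rhythm in gut. Its IgG signals were 92.4, 97.3 and 108 at ZT 1 and 212, 236 and 253 at ZT 13, with no overlap. The peak was at 11.5 h (SE 0.291) and the fold 2.28 with IgG (limma, adjusted p = 4.16e-11), against 10.5 h (SE 0.314) and 2.15 with anti-Ly6G. Bhlhe41 was lowest at ZT 1, with 1.797, 2.07 and 2.46, and highest at ZT 9, with 5.18, 5.81 and 6.61. The IgG peak was at 10.7 h (SE 0.597, 2.25-fold; limma, adjusted p = 4.21e-05), and the anti-Ly6G peak at 10.6 h (SE 0.465) had a fold of 2.83. Bhlhe40 had the shallowest rhythm, 1.55-fold with a peak at 10.1 h (SE 0.654) in IgG libraries (limma, adjusted p = 0.000136). Its 1.26-fold wave with anti-Ly6G missed the threshold (limma, adjusted p = 0.0576), but passed it with a 12 h wave added or without ZT 21 (adjusted p = 0.0412 and 0.00252). It also passed without anti-Ly6G replicate 11 (0.0395) or IgG replicate 10, 11 or 13 (0.0438, 0.0196 and 0.0441).

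Anti-Ly6G left no call on any of the 4 in gut, where 0.0132% of all genes (2 of 15158) were called for the treatment effect. The log2 differences, anti-Ly6G minus IgG, were 0.03 (SE 0.0586) for Bhlhe40, -0.01 (SE 0.0772) for Bhlhe41, -0.0017 (SE 0.143) for Ciart and 0.01 (SE 0.0420) for Cipc. None of the 4 was called for a difference in rhythm between the arms, and no gene was (0% called, although 984 genes had an unadjusted p under 0.05 in limma's F test). Unadjusted, Cipc was among the latter (p = 0.0472; adjusted p = 0.763). The single-time difference with the lowest unadjusted p was that of Bhlhe40 at ZT 21, with signals of 99.5, 121 and 175 with IgG and 167, 176 and 184 with anti-Ly6G. These ranges overlapped, and the log2 difference was 0.45 (SE 0.125), given without a call.

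In liver the same genes were rhythmic with IgG, with peaks spread over more of the day. All 4 were called with IgG and 3 with anti-Ly6G, where 42.9% and 34.7% of all genes were called. Ciart again swung most. Its IgG libraries at ZT 1 held 0, 1 and 4 recovered reads, at or near the limit of detection, and signals of 14.8, 18.4 and 21.9 at ZT 9. The fitted IgG peak was at 10.6 h (SE 0.431, 12.7-fold; limma, adjusted p = 8.36e-08), and the anti-Ly6G peak came at 9.85 h (SE 0.474) with a fold of 10.1. With so few reads at the trough, these folds depend on the 1 added to each signal.

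Bhlhe41 was the earliest in liver. With IgG it had signals of 0.173, 0.409 and 0.526 at ZT 1 and 2.39, 8.19 and 9.07 at ZT 5. The 3 libraries at ZT 5 therefore spread widely while still lying above all 3 at ZT 1. The IgG peak was at 8.04 h (SE 0.672, 4.28-fold; limma, adjusted p = 0.000112). This fold depends on the 1 added to each signal, and the IgG means themselves were 0.369 at ZT 1 and 6.55 at ZT 5. In anti-Ly6G libraries the peak was at 6.03 h (SE 1.07, 2.48-fold; adjusted p = 0.0177). The second call was lost without ZT 5 (adjusted p = 0.302), without ZT 9 (0.0714) and without anti-Ly6G replicate 5 (0.0584) or 6 (0.0726). Bhlhe40 was lowest at ZT 1, with 33.3, 43.7 and 52.7, and its IgG signals at ZT 5 were 92.9, 196 and 211. Its peak with IgG was at 10.3 h (SE 0.694, 2.93-fold; limma, adjusted p = 0.000174). With anti-Ly6G its 1.49-fold wave was not called (adjusted p = 0.247), but was with a 12 h wave added or without ZT 21 (adjusted p = 0.0321 and 0.0386).

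Cipc was the latest. Its IgG signals were 24.4, 31.6 and 34.6 at ZT 5, when Bhlhe41 was at its height, and 50.7, 53.6 and 53.9 at ZT 13, with no overlap. The peak was at 14.4 h (SE 0.670, 1.58-fold; limma, adjusted p = 0.000108) with IgG. With anti-Ly6G it was at 12.6 h (SE 1.07, 1.33-fold; adjusted p = 0.0180), a call lost without ZT 1 or ZT 13 (adjusted p = 0.284 and 0.254) and without anti-Ly6G replicate 2, 3 or 10 (0.0720, 0.0550 and 0.0672). In IgG liver Cipc peaked 3.86 h (SE 0.796) after Ciart, 4.16 h (SE 0.964) after Bhlhe40 and 6.38 h (SE 0.948) after Bhlhe41. In IgG gut it followed Ciart by 1.05 h (SE 0.429), Bhlhe40 by 1.46 h (SE 0.716) and Bhlhe41 by 0.82 h (SE 0.664). The SE of each gap treats the peaks as independent, although the genes were measured in the same libraries. The order thus spread over more hours in liver by the fitted peaks, a difference between tissues that was not tested.

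**Figure D2:**
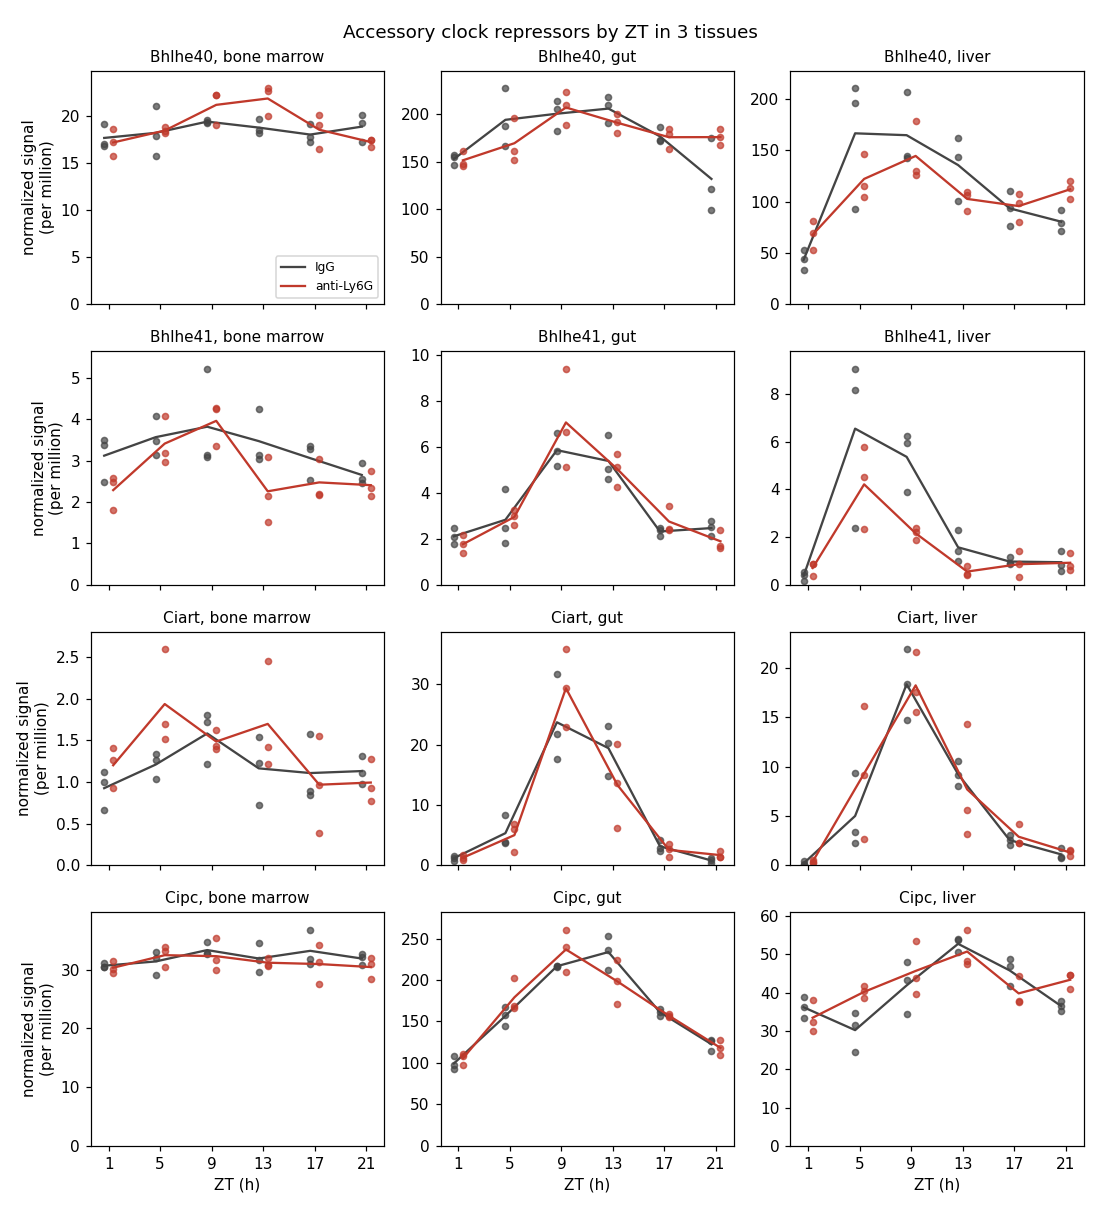
Normalized signal by ZT in bone marrow, gut and liver, with 1 point per library (n = 3 per arm and ZT) and lines through the means. Ciart and Bhlhe41 swing widely in gut and liver, and Cipc in bone marrow stays within a narrow band. The fitted Cipc peaks are later in liver than in gut, a difference that was not tested.

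None of the 4 was called for an anti-Ly6G effect in liver over the whole day, where 1.4% of all genes were called. Bhlhe41 had the largest estimate, a log2 difference of -0.33 (SE 0.136; limma, adjusted p = 0.263), and 2.06% of the genes tested had a larger one. At ZT 5 the arms overlapped, with 2.39 to 9.07 against 2.35 to 5.78. At ZT 9 Bhlhe41 was 3.91, 5.95 and 6.25 with IgG and 1.88, 2.20 and 2.40 with anti-Ly6G, which did not overlap (log2 difference -0.99, SE 0.301). At ZT 13 the signals were 0.992, 1.42 and 2.30 against 0.420, 0.452 and 0.792, again apart. At ZT 1, 17 and 21 the arms overlapped. Bhlhe40 at ZT 21 was 71.1, 78.8 and 91.5 with IgG and 102, 113 and 120 with anti-Ly6G, also apart (log2 difference 0.48, SE 0.234). At ZT 1 Bhlhe40 was 33.3, 43.7 and 52.7 against 52.4, 69.1 and 81.6, overlapping only just (log2 difference 0.64, SE 0.234). Cipc at ZT 5 was 24.4, 31.6 and 34.6 against 38.5, 40.5 and 41.6 (log2 difference 0.41, SE 0.120). At ZT 21 Cipc was 35.2, 36.5 and 37.8 against 40.9, 44.5 and 44.7, also apart (log2 difference 0.24, SE 0.120). These single-time differences are descriptions, and none had an adjusted p under 0.05. At single times 0.008% to 0.272% of all genes were called, and how many lay apart was not counted. No member was called for a differential rhythm in liver, where 0.008% of genes were (1 gene).

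Bone marrow gave the fewest rhythm calls among these genes. With IgG none of the 4 was called, against 1.62% of all genes, and with anti-Ly6G only Bhlhe40 was, against 0.406%. Its anti-Ly6G signals were 15.7, 17.3 and 18.6 at ZT 1 and 20.002, 22.6 and 22.99 at ZT 13. These did not overlap, and the fitted wave peaked at 11.2 h (SE 0.783, 1.28-fold; limma, adjusted p = 0.0333). The call was lost when any of 11 anti-Ly6G libraries was left out (replicates 3, 4, 5, 8, 9, 10, 11, 15, 16, 17 and 18, with adjusted p up to 0.104) and without ZT 9, 13 or 21. With IgG the Bhlhe40 fold was 1.05. The difference in rhythm between arms was not called for any member (adjusted p = 0.9995 for each, with 0.007% of all genes called). Cipc stayed between 29.2 and 36.8 in all IgG libraries. Ciart and Bhlhe41 were low, with IgG medians of 1.17 and 3.15, and the lowest IgG library held 11 recovered reads of Ciart and 37.7 of Bhlhe41. With anti-Ly6G their fitted folds were 1.46 and 1.43, neither called (limma, adjusted p = 0.228 and 0.209). At such low signals these folds depend on the 1 added to each signal.

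Anti-Ly6G called 17.1% of all genes in bone marrow and none of the 4, too few genes to set apart from that share. Bhlhe41 came closest, at 3.29 ± 0.693 (SD, n = 18) with IgG and 2.80 ± 0.810 (n = 18) with anti-Ly6G. The groups overlapped and the log2 difference was -0.19 (SE 0.0735; limma, adjusted p = 0.0761). It passed the threshold without ZT 9 (adjusted p = 0.0355) and without IgG replicate 7 or 8 (0.0448 and 0.0470). The other log2 differences were 0.04 for Bhlhe40 (SE 0.0391), 0.10 for Ciart (SE 0.0839) and -0.04 for Cipc (SE 0.0306).

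In lung the answer depended on which order of the libraries was used. By label, a rhythm was called for all 4 in IgG libraries and for 3 in anti-Ly6G libraries, against 11.2% and 12.7% of all genes. By title number it was called for all 4 in both arms, against 23.6% and 13.2%. The label-order call of Cipc with anti-Ly6G (limma, adjusted p = 0.0307) was lost without any of 7 anti-Ly6G libraries (replicates 2, 3, 4, 5, 6, 7 and 11) and that of Ciart with IgG without ZT 13 (0.0858). The label order put the peaks in the earlier hours and the middle of the light phase, at 6.19 h for Bhlhe40 (SE 0.615), 4.51 h for Bhlhe41 (SE 0.526), 3.63 h for Ciart (SE 0.842) and 5.49 h for Cipc (SE 0.596) with IgG. The title order put them at 9.85 h (SE 0.358), 8.73 h (SE 0.368), 10.5 h (SE 0.674) and 11.2 h (SE 0.468). Dbp, a direct target of CLOCK and BMAL1, peaked at 3.44 h by label with IgG, against 10.1 h in gut and 8.59 h in liver. The Dbp peak by title number is not given here, so these values do not compare the 2 orders.

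Bhlhe41 shows how far the 2 orders diverge. By label its anti-Ly6G signals were 47.1, 52.3 and 52.6 at ZT 1 and 12.6, 19.9 and 21.3 at ZT 5, while with IgG they were 31.5, 32.7 and 34.4 at ZT 1 and 31.9, 34.5 and 36.7 at ZT 5. By title number the 3 highest libraries were IgG at ZT 9, and the anti-Ly6G signals there were 31.9, 34.5 and 36.7. By label its rhythm differed between arms, with peaks at 4.51 h and 0.505 h (difference of the waves 0.87 on the log2 scale; limma, adjusted p = 0.0471, with 0.0511% of all genes called). That call was lost in 25 of 36 fits that left out 1 library (adjusted p up to 0.126) and without ZT 1, 13 or 21 (0.0756, 0.0633 and 0.651). By title number the peaks were 8.73 and 8.21 h and the difference 0.20 (adjusted p = 0.947, with 0.00639% of genes called).

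The treatment effect changed sign between the orders. By label, over the whole day, no member was called and no gene was (0%, although 1462 genes had an unadjusted p under 0.05 in limma). The log2 difference of Bhlhe40 was 0.23 (SE 0.0893; adjusted p = 0.398) and that of Bhlhe41 0.09 (SE 0.139; adjusted p = 0.884). At single times by label, Bhlhe41 was called at ZT 21 and, in the other direction, at ZT 5 (log2 1.44 and -0.93; limma, adjusted p = 6.52e-07 and 0.000886). Bhlhe40 was called at ZT 21 and ZT 1 (log2 0.86 and 0.68; adjusted p = 0.00369 and 0.0364). Of all genes, 0.262% were called at ZT 21, 1.55% at ZT 5 and 0.230% at ZT 1. By title number 6.88% of genes were called and 2 members among them, Bhlhe40 at -0.25 (SE 0.0587; limma, adjusted p = 0.00933) and Bhlhe41 at -0.18 (SE 0.0536; adjusted p = 0.0366). In that order Bhlhe40 at ZT 9 was 96.5, 101 and 104 with IgG and 60.3, 72.5 and 79.8 with anti-Ly6G, with no overlap. Ciart was 0.22 (SE 0.0753; adjusted p = 0.0703) and Cipc 0.10 (SE 0.0409; adjusted p = 0.137), neither called. Neutrophil markers moved with the order as well. By title number 5 of 9 tested were called, all lower with anti-Ly6G, namely S100a9 (log2 -1.10), S100a8 (-0.92), Csf3r (-0.91), Mmp9 (-0.60) and Cxcr2 (-0.18). By label these 5 were 0.55, 0.45, 0.53, 0.34 and 0.13, and 0 of 9 were called. The sum of the 10 markers in the table had a lowest, median and highest of 115, 182 and 266 with IgG and 88.3, 143 and 206 with anti-Ly6G by title number. By label the same sums were 93.8, 142 and 206 with IgG and 88.3, 189 and 266 with anti-Ly6G. Their part in the Bhlhe40 and Bhlhe41 values was not tested. No direction of a treatment effect on these genes in lung is therefore given.

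**Figure D3:**
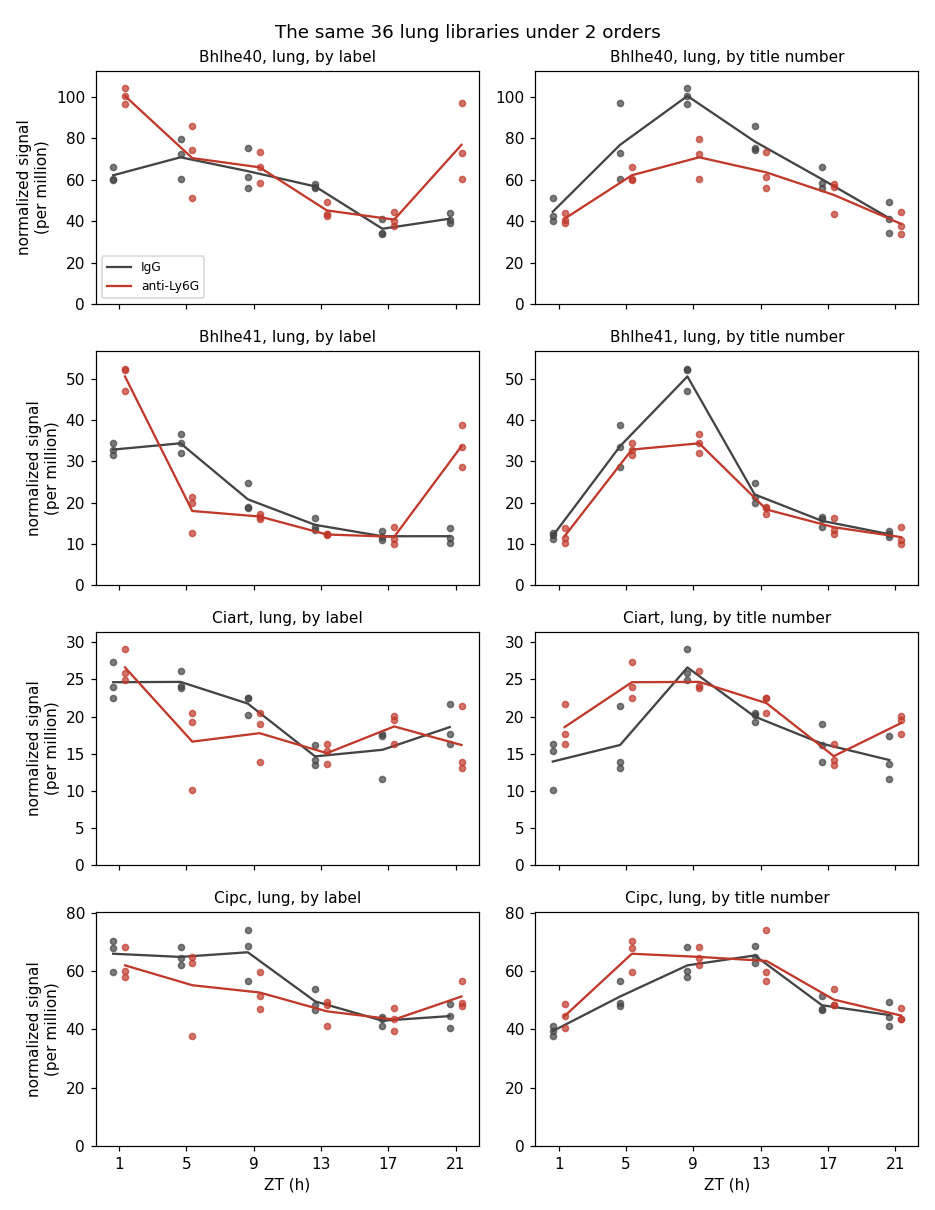
The same 36 lung libraries placed by their labels (left) and by their title numbers (right), as normalized signal by ZT with 1 point per library and lines through the means (n = 3 per arm and ZT). By title number the fitted peaks of the 4 genes lie between 7.21 and 11.2 h in both arms, and by label Bhlhe41 is highest at ZT 1 with anti-Ly6G.

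In ear skin of iDTR mice, Bhlhe40, Bhlhe41 and Ciart rose and Cipc fell against control. The same comparison called 63% of all genes (4886 higher and 5162 lower of 15946), so a count of 4 of 4 is not read as particular to these genes. Bhlhe40 had a lowest, median and highest signal of 50.7, 64.8 and 101 in control and 109, 139 and 168 in iDTR. The groups did not overlap, and iDTR was higher at 16 of 16 matched ZT. The means were 68.4 ± 14.02 and 136 ± 17.7 (SD, n = 16 each), 1.99-fold higher (log2 0.99, SE 0.0748; limma, adjusted p = 3.85e-16). Of all genes tested, 3.69% had a larger absolute log2 difference, and the median absolute difference was 0.20.

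Ciart and Bhlhe41 rose less. Ciart was 11.7, 23.4 and 48.2 in control and 17.7, 26.9 and 62.7 in iDTR, overlapping widely, with iDTR higher at 14 of 16 ZT (log2 0.43, SE 0.108; limma, adjusted p = 0.000625). Bhlhe41 was 25.5, 41.7 and 71.0 against 28.6, 45.3 and 95.4, higher at 11 of 16 ZT (log2 0.28, SE 0.107; adjusted p = 0.0206). The iDTR library at ZT 4 had the highest Bhlhe41 and Ciart signals of the skin set, 95.4 and 62.7. Cipc fell, from 74.1, 83.4 and 98.1 to 58.0, 76.1 and 96.4, lower at 14 of 16 ZT (log2 -0.15, SE 0.0377; limma, adjusted p = 0.000833). All 4 calls held in each of the 47 fits that left out 1 library.

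Other transcripts moved with these, in a comparison that called 63% of all genes, so the marker counts are descriptions. In iDTR skin all 6 tested neutrophil markers were higher, the sum of the 10 listed markers in the table running from 27.7 to 63.9 in control and from 63.6 to 164.5 in iDTR. All 5 adipocyte markers and 6 of 8 skeletal muscle markers were lower, with adipocyte sums of 180.3 to 305 and 51.6 to 266. Of 4 keratinocyte markers 2 were higher and 1 lower, and Krt14 went from 4131 ± 512 to 8244 ± 1629. T cell markers were lower for 4 of 5 tested. Of 6 tested macrophage markers, 1 was higher and 1 lower. The part of these in the Bhlhe40 result was not tested.

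Bmal1-flox skin gave no call on the 4, against 5.63% of all genes. Bhlhe40 had a lowest, median and highest signal of 39.8, 57.8 and 98.4 there, within the control range at the top and below it at the bottom (log2 -0.18, SE 0.0761; limma, adjusted p = 0.187). It was lower than control at 11 of 15 ZT. Bhlhe41 was -0.14 (SE 0.109), Ciart -0.18 (SE 0.109) and Cipc -0.04 (SE 0.0383) on the log2 scale. One Bmal1-flox library had an Alb signal of 1182, a liver transcript with a median of 1.53 in that group, and no member's call changed when it was left out.

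**Figure D4:**
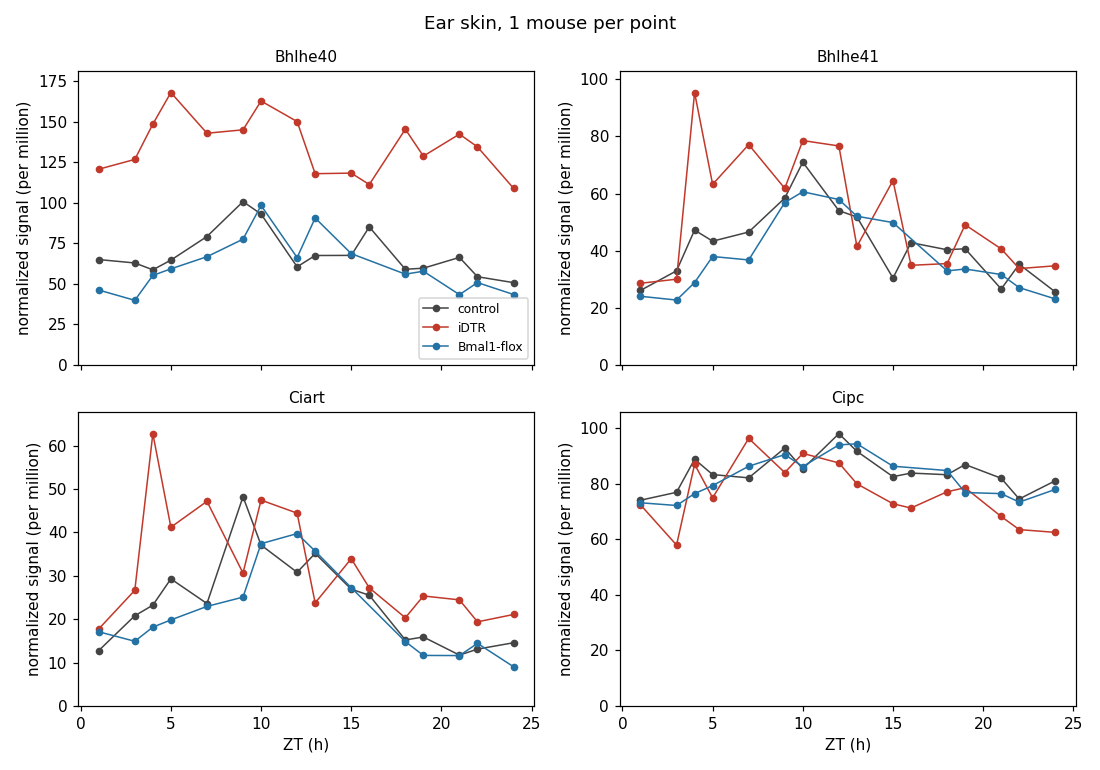
Normalized signal in ear skin by ZT, with 1 mouse per point, for control (n = 16), iDTR (n = 16) and Bmal1-flox (n = 15, none at ZT 16). Every iDTR point for Bhlhe40 lies above every control point, while the 3 groups overlap for the other genes.

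In skin Ciart and Bhlhe41 were called rhythmic in all 3 groups. Of all genes, 0.383% were called in control, 10.9% in iDTR and 0.326% in Bmal1-flox. Ciart peaked at 10.1 h (SE 0.486, 2.92-fold; limma, adjusted p = 1.56e-05) in control, at 8.46 h (SE 0.693, 2.11-fold) in iDTR and at 10.9 h (SE 0.526, 2.89-fold) in Bmal1-flox. Bhlhe41 peaked in the same order of groups at 10.3 h (SE 0.794, 1.96-fold; adjusted p = 0.0394), 9.23 h (SE 0.700) and 12.0 h (SE 0.659). The control call of Bhlhe41 was lost without any of control replicates 4, 6, 7, 8, 9, 11, 12, 13 or 14 (adjusted p up to 0.178).

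Bhlhe40 in skin was rhythmic by the test only in Bmal1-flox (11.6 h, SE 0.566, 1.89-fold; limma, adjusted p = 7.68e-05). In control its fold was 1.42 (adjusted p = 0.145) and in iDTR, where its level was highest, 1.195 (adjusted p = 0.358). Cipc was called only in iDTR (10.2 h, SE 0.687, 1.33-fold; adjusted p = 0.00116). Whether the rhythm itself differed was tested directly, and no member was called for iDTR against control (0.144% of genes called) or for Bmal1-flox against control (0% called, although 563 genes had an unadjusted p under 0.05 in limma's F test). The lowest adjusted p of the 4 was that of Ciart in iDTR, 0.314, with a shift of -1.62 h (SE 0.847).

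Outside lung, the called peaks of Ciart fell between 8.46 and 10.9 h in 7 groups, those of Bhlhe40 between 10.1 and 11.6 h in 4, those of Bhlhe41 between 6.03 and 12.0 h in 7 and those of Cipc between 10.2 and 14.4 h in 5. In IgG gut the peak of Nr1d1, which encodes the repressor REV-ERB alpha, minus that of Ciart was -2.10 h (SE 0.375), and Per2 minus Ciart was 4.57 h (SE 0.414). In IgG liver the same differences were -4.36 h (SE 0.486) and 3.34 h (SE 0.493). Arntl, whose product the 4 proteins oppose directly or through its partner, peaked at 23.3 h (SE 0.255) in IgG gut and 21.0 h (SE 0.395) in IgG liver. Arntl minus Ciart was -11.2 h (SE 0.406) in gut and 10.4 h (SE 0.585) in liver, close to opposite times of day in both. The SE of each such difference treats the peaks as independent, although the genes were measured in the same libraries.

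**Figure D5:**
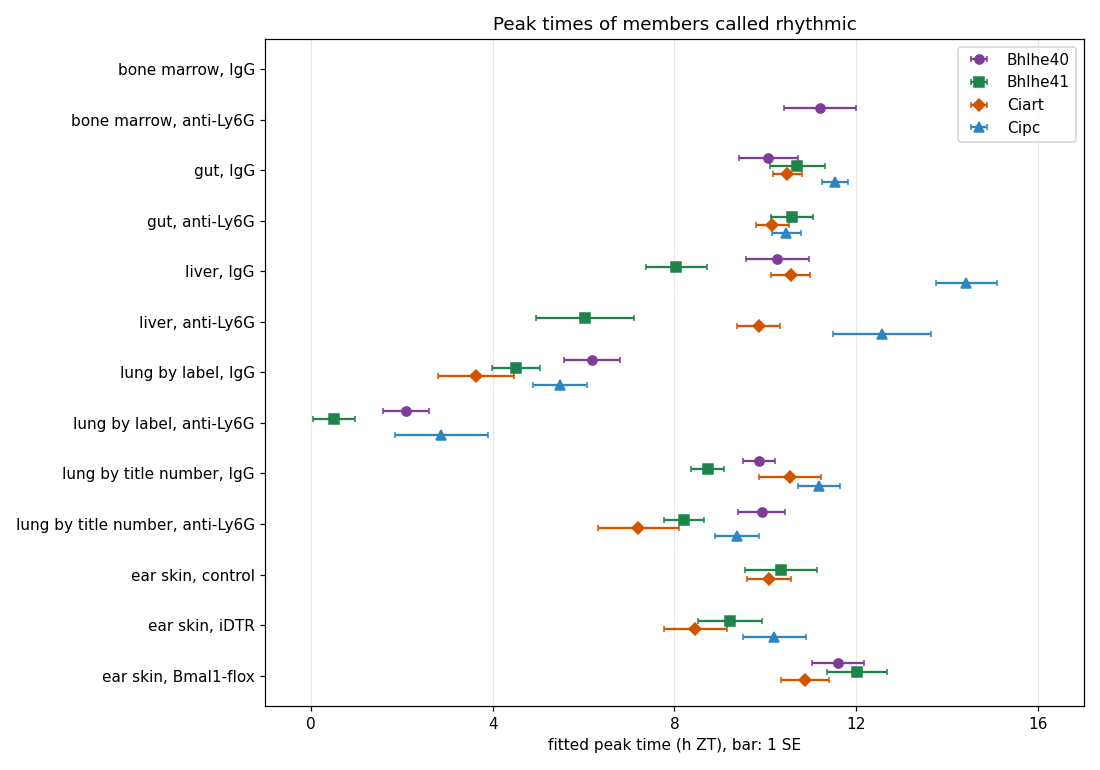
Fitted peak time in hours ZT for each gene and group in which a 24 h rhythm was called, with bars of 1 SE. Outside lung the points lie between 6.03 and 14.4 h, with Cipc latest and Bhlhe41 earliest in liver, and the 2 placements of lung differ by several hours.

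The other clock genes give the setting. Of 20 listed genes, 19 were tested in gut, liver, lung and skin and 18 in bone marrow. Called rhythmic with IgG and anti-Ly6G were 6 and 7 in bone marrow, 16 and 16 in gut, 17 and 17 in liver and 16 and 14 in lung by label. In skin 12 were called in control, 12 in iDTR and 11 in Bmal1-flox. For the treatment effect, 5 of 18 were called in bone marrow, where 17.1% of all genes were, and all 5 were higher, among them Per1 (log2 0.72), an immediate target of CLOCK and BMAL1, and Nfil3 (0.31), a repressor of D-box genes. Only Per1 was called in liver (log2 0.93; limma, adjusted p = 0.00741). In iDTR skin 14 of 19 were called, beside 63% of all genes, with 6 higher and 8 lower, among them Nr1d1 at log2 1.28 and Per3 at -0.76. In Bmal1-flox skin Npas2 was higher (0.44) and Per3 lower (-0.30).

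The genes most like each member were sought among 10346 genes, as the mean over 5 tissues of the correlation across all libraries of a tissue. These share libraries, ZT and groups, so the values are descriptions. Bhlhe41 stood closest to Dbp (mean r 0.84) and Nr1d2 (0.77), and Ciart to Dbp (0.74), Per1 (0.72) and Nr1d2 (0.71). Cipc stood closest to Tef (0.66) and Per3 (0.61). Bhlhe40 was nearest to Coq10b (0.60) and Rbm3 (0.60), with Ltbr, Dbp and Rps6ka4 next (0.57 each). These means hide differences between tissues. For Bhlhe40 and Coq10b r ran from -0.01 in bone marrow to 0.88 in skin, and for Cipc and Tef from 0.33 in bone marrow to 0.95 in gut. Among themselves Bhlhe41 and Ciart were the closest pair (0.66) and Bhlhe40 and Cipc the least alike (0.36).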

How the data were processed

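RNA sequencing of 191 mouse libraries was used. Library input was 200 ng total RNA (NEBNext Ultra) with 50 nt single reads, per the labels. The submitters' processing notes name mm10, CASAVA 1.8, cutadapt 1.7.1, RSEM 1.7.1 and limma 3.46, and the labels' protocols RSEM 1.2.20, Kallisto 0.43.1 and Ensembl build 84. The deposited values are a normalized signal made by the authors, 1 table per tissue. They behaved as RSEM expected counts plus 0.5 over a scaled library size, so recovered counts gave the depth. The normalization method and gene filter are not given in the sources used here.

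Genes were matched to GENCODE M21 by identifier (44 to 75 unmatched per table). Genes with a mean signal of at least 1 were fitted as log2(signal + 1) with limma 3.58.1 in R 4.3.3 (mean-variance trend, Benjamini-Hochberg, two-sided, threshold 0.05). The treatment effect was adjusted for ZT, and the skin genotype effect for a 24 h wave. The period of rhythms was 24 h. The code was tested on simulated data. The 4 genes, the clock and marker lists, and the rule for likeness were chosen with earlier results of these data known. The likeness rule took, per gene, the highest 5 mean correlations. Alternatives covered pseudocount, filter, normalization, moderation, time terms, each ZT, each library, a replicate block in gut, and lung by title number. No value columns lacked a sample.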

Additional observations from a re-analysis of the deposited data

Results flagged for a closer look

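In lung, by label, the rhythm of Bhlhe41 differed between anti-Ly6G and IgG, with a difference of the fitted waves of 0.87 on the log2 scale (limma F test, Benjamini-Hochberg adjusted p = 0.0471). It is listed because the difference between the 2 arms was itself tested and passed. With ZT and treatment taken from the title numbers the difference was 0.20 (adjusted p = 0.947). The part of the library order in this result was not tested beyond that refit.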

How the results depend on the processing

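Of 23 counts of members called, 18 stayed within 1.5 times their value under every alternative run, among them the 4 of 4 in iDTR skin and the 4 of 4 rhythmic in IgG gut and liver, which ranged down to 3. In bone marrow the count for the treatment effect went from 0 to 1 without ZT 9 and ranged from 0 to 1 with 1 library left out. The bone marrow anti-Ly6G rhythm count of 1 became 2 with a 12 h wave added and 0 with ZT as a factor or without ZT 9, 13 or 21, and ranged from 0 to 1 with 1 library left out. The lung differential rhythm count of 1 became 0 with no filter, without a trend, with robust moderation, without ZT 1, 13 or 21 and by title number. It became 2 with a 12 h wave, without ZT 5, 9 or 17 and with ZT as a factor, and ranged from 0 to 2 with 1 library left out. The lung treatment count went from 0 to 2 by title number, where Bhlhe40 (log2 -0.25) and Bhlhe41 (-0.18) reversed. The control skin rhythm count of 2 became 1 without a trend, with robust moderation, with voom weights and with a 12 h wave, and ranged from 1 to 2 with 1 library left out. The cause of these changes was not tested. Of 24 member effects, 10 changed sign somewhere, all uncalled by the reported fit.

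In gut, where labels number replicates within arms, the count of members called for the treatment effect was 0 with a replicate block and 0 without it. Numbers did not pair the libraries: 6 of 18 same-numbered pairs had a correlation of deviations over 0.1 (range -0.22 to 0.18). Other titles carry running numbers, so no replicate block was possible there. In skin, pairing by ZT (ZT as a factor) kept 4 members called for iDTR and 0 for Bmal1-flox. Depth limits Ciart in bone marrow and at the liver trough, and Bhlhe41 at the liver trough, where libraries held few reads.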
